A study of Mus musculus with 28 samples.

Results

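The interaction of sleep deprivation and restraint asks whether the pituitary response to an acute stressor depends on the sleep that came before it. It was taken over every mouse of the series, 28 of 28, as the response to restraint after paradoxical sleep deprivation (PSD) minus the response to restraint without it. All mice were C57BL/6J, 8 weeks old on arrival, and all were habituated to the deprivation tank, controls included. In PSD the mouse stands on a small column above water and is woken when muscle tone is lost in REM sleep. PSD lasted 12 h, and the gland was taken 18 h after its end. Restraint lasted 20 min and ended 10 min before the gland was taken. The 4 groups were home cage control (4 females, 4 males), restraint (4 females, 2 males), PSD (4 females, 3 males) and PSD + restraint (4 females, 3 males). A positive interaction means that the log2 response to restraint was larger after PSD, a negative value that it was smaller, and 0 that both treatments multiplied the level independently. The restrained males are the smallest group, and each of their 2 mice carries much of the male value.

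Restraint activates the hypothalamic-pituitary-adrenal axis. Corticotropin-releasing factor reaches the corticotropes of the anterior lobe, raises cAMP and calcium, and releases ACTH, a product of the Pomc gene. Immediate early genes such as the Nr4a, Fos and Egr families are transcribed within minutes of such a signal without new protein synthesis, and MAP kinase phosphatases and cAMP-induced repressors such as Crem then limit it. The glands were taken while this early wave is under way.

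Libraries held 14024465 to 52948531 counted reads (median 33389717). Hormone transcripts of the anterior lobe were abundant in every gland, with Gh between 59890 and 226200 CPM, reads scaled to the size of the library. Of 32594 genes in the table, 18936 passed the filter on low counts and were tested. No library looked like a repeat, since each of the 37 pairs of mice sharing sex and treatment differed beyond sampling noise. The library of 1 restrained female, labelled PHR-103f, stood apart. A set of 9 fat genes, of which Ucp1, the uncoupling protein of brown fat, is the most specific, summed to 947.3 CPM there and to between 14.6 and 65.6 CPM in the other 27 mice. Ucp1 was at 215.6 CPM against at most 1.23 CPM elsewhere, and Adipoq, the adipocyte hormone adiponectin, at 40.5 CPM against at most 0.138 CPM. These genes were picked after the values of this library had been seen. The control male PHN-101m had the lowest sum of 8 neurointermediate lobe markers, 78.3 CPM, and the PSD female PPN-101f the highest sum of 9 forebrain markers, 211.6 CPM. Where a value given below moved much without one of these libraries, both values are given.

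No gene was called for the interaction. A gene counts as called when its adjusted p (Benjamini-Hochberg, edgeR's quasi-likelihood test) is at most 0.05 and its log2 value at least 0.32 in size. The number called was 0 of 18936 (0%), and the smallest adjusted p was 0.9999. An unadjusted p under 0.05 was found for 743 genes (3.92%), 340 of them positive (1.8%) and 403 negative (2.13%). DESeq2 called 0 genes and limma voom 0, with 712 and 827 genes at an unadjusted p under 0.05. Without the restrained female PHR-103f the number at that limit fell to 485, 235 positive and 250 negative. The median value over all genes was -0.01 log2 units, with quartiles of -0.11 and 0.08.

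The same model called genes for each of the differences that the interaction is made of. For restraint against control it called 177 genes higher (0.935%) and 39 lower (0.206%). Within PSD mice, restraint gave 267 higher (1.41%) and 114 lower (0.602%). For PSD against control the calls were 107 higher (0.565%) and 20 lower (0.106%), a total of 127 that was 286 in DESeq2 and 78 without the 3 libraries named above. Among restrained mice PSD gave 18 higher (0.0951%) and 0 lower (0%), where DESeq2 called 65. Genes called higher for restraint in both settings numbered 135, which is 76.3% of those called without PSD and 50.6% of those called after it. Those called lower in both numbered only 11, which is 28.2% of those called without PSD and 9.65% of those called after it. The larger count after PSD is not itself a difference in response, since no gene's difference passed the test. The 2 responses share no mouse, and across the 18936 genes their log2 values had a Pearson correlation of 0.430 and a Spearman correlation of 0.349, across genes that are not independent of each other. Over the 61 tested genes of the immediate early, MAP kinase feedback and cAMP-induced lists the correlations were 0.914 and 0.863.

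How large an interaction could have gone unseen depends on expression. The standard error had a median of 0.14 log2 units. The 95% interval lay within 1 log2 unit of 0 on both sides for 15923 genes (84.1%), and within 0.32 for 7707 genes (40.7%). Among 9114 genes with a mean of 10 to 100 CPM, 98.8% had an interval within 1 log2 unit. Among the 3475 genes under 1 CPM it was 31.7%. An interaction of 1 log2 unit, in either direction, thus lay outside the interval for most genes of moderate level. The immediate early transcription factors were measured less precisely than most genes: their standard errors had a median of 0.37, and 15 of 33 had an interval within 1 log2 unit.

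**Figure D1:**
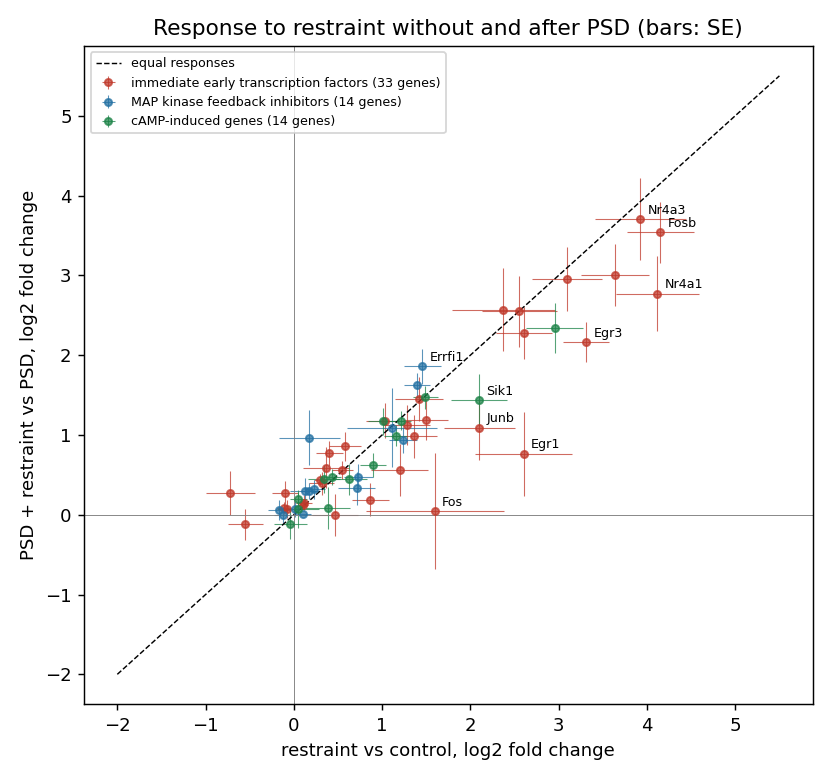
Log2 fold change of restraint against control (x axis) and of PSD + restraint against PSD (y axis) for the 61 tested genes of 3 stress-response lists, with standard errors and the line of equal responses. Most genes lie near the line, and Egr1, Nr4a1, Egr3, Junb and Fos lie below it.

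Many immediate early transcription factors rose with restraint in both settings. Of the 33 in the list, 18 were called higher without PSD and 18 after PSD, against 0.935% and 1.41% of all genes. Their interaction had a median of -0.01 log2 units, 16 values being positive and 17 negative, and 0 were called. Without PHR-103f the median was -0.13, with 14 positive and 19 negative, and without all 3 libraries named above it was -0.20, with 12 positive and 21 negative. Leaving out 1 mouse at a time moved it between -0.21 and 0.08, so that it has no fixed sign. At an unadjusted p under 0.05, 1 was positive, Myc at 0.99 ± 0.39 (SE), and 4 were negative, Egr3, Egr1, Btg2 and Nr4a1. Over all genes 1.8% were positive and 2.13% negative at that limit. As a median over the 33 genes of log2(CPM + 1) relative to the mean of all mice, the level ran from -0.84 to -0.20 in controls and from 0.02 to 0.45 in restrained mice. It ran from -0.56 to -0.06 in PSD mice and from 0.35 to 0.60 in PSD + restraint mice, so that restrained and unrestrained mice did not overlap in either setting.

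Egr3 (chromosome 14, 70077203 to 70082614, GRCm38), a zinc finger factor of the early growth response family, had the smallest p of the list. Control mice had 0.531 to 2.04 CPM (median 1.13) and restrained mice 8.03 to 23.1 CPM (median 9.86). PSD mice had 1.44 to 3.27 CPM (median 2.46) and PSD + restraint mice 5.46 to 17.2 CPM (median 9.81). The medians of both restrained groups were thus close, and the ranges of control and PSD mice overlapped. The log2 response was 3.31 ± 0.26 (SE) without PSD and 2.16 ± 0.25 (SE) after it, both called, and the PSD difference without restraint was 1.03 (adjusted p = 0.0585). The interaction was -1.15 (95% interval -1.88 to -0.42, adjusted p = 0.9999). It was negative in both sexes, at -0.77 ± 0.47 (SE) in females and -1.66 ± 0.55 (SE) in males. With each mouse left out it lay between -1.27 and -0.91. Egr3 stands first in its list by p in these same mice, so these values are no separate support.

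Nr4a1 (chromosome 15, 101254269 to 101274795), an orphan nuclear receptor that acts on the Pomc promoter, had 13.6 to 76.6 CPM in controls (median 35.6) and 441 to 971 CPM in restrained mice (median 782.5). PSD mice had 34.9 to 471 CPM (median 84.1) and PSD + restraint mice 574 to 1255 CPM (median 852.6). The highest PSD mouse, the male PPN-103m, lay inside the range of the restrained mice. The interaction was -1.35 (95% interval -2.63 to -0.06), and without that male it was -0.69. Egr1, the early growth response factor most used as a marker of activity, had 6.99 to 72.9 CPM in controls and 78.8 to 321 CPM in restrained mice. It had 22.0 to 233 CPM in PSD mice and 99.7 to 363 CPM in PSD + restraint mice, so that the PSD groups overlapped. Restraint raised Egr1 by 2.61 (adjusted p = 0.00784) without PSD, the difference after PSD was 0.76 (adjusted p = 0.593), and the interaction was -1.84 (95% interval -3.40 to -0.29). Leaving out 1 mouse at a time moved the Egr1 value between -2.13 and -1.35.

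Gadd45b (chromosome 10, 80930073 to 80932204), a growth arrest and DNA damage gene, was called in 3 of the 4 component differences. Its levels were 7.09 to 15.7 CPM in controls, 29.4 to 54.5 CPM after restraint, 16.8 to 28.7 CPM after PSD and 33.8 to 72.6 CPM after both. All PSD mice lay above all controls, and the restrained groups overlapped. Restraint raised it by 1.72 without PSD and by 1.16 after it, PSD alone raised it by 0.97 (adjusted p = 0.00267), and the interaction was -0.56 ± 0.23 (SE), at -0.57 in females and -0.50 in males.

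Several other early genes had interactions within 2 standard errors of 0. Nr4a2 had -0.64 ± 0.51 (SE), Fosb -0.61 ± 0.52 (SE) and Sik1, a salt-inducible kinase that restrains cAMP signalling, -0.66 ± 0.45 (SE). Nr4a3 and Fosl2 had -0.22 ± 0.69 (SE) and -0.01 ± 0.59 (SE), although restraint raised each of them by over 2.5 log2 units in both settings. Junb, whose response was called without PSD (2.10) and not after it (1.09, adjusted p = 0.160), had -1.01 ± 0.56 (SE), so a difference between those responses was not shown. Fos was uneven within groups: the restrained male PHR-102m had 322 CPM and the other restrained male 46.9 CPM, while the 4 restrained females had 15.2 to 23.3 CPM. Its interaction was -1.55 ± 1.06 (SE), and 0.01 without the restrained male PHR-102m.

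Several strong responders had interactions near 0 with narrower intervals. Fam212b, a gene also named Inka2 that encodes a kinase inhibitor, rose by 1.21 without PSD and by 1.18 after it, with an interaction of -0.03 (95% interval -0.37 to 0.31). That interaction was -0.27 ± 0.21 (SE) in females and 0.31 ± 0.24 (SE) in males. Slc25a25, a mitochondrial carrier of ATP and phosphate, rose by 1.15 and 0.99, with an interaction of -0.16 (95% interval -0.53 to 0.21). Crem, the cAMP-responsive element modulator, had 36.8 to 64.2 CPM in controls and 67.4 to 125.0 CPM after restraint, and 34.1 to 76.4 CPM after PSD and 87.7 to 143 CPM after both. Its interaction was 0.16 (95% interval -0.33 to 0.65). Il1b, the gene of interleukin 1 beta, rose from at most 0.888 CPM in controls to 2.48 to 7.09 CPM after restraint, and its interaction was -0.24 (95% interval -0.85 to 0.37). Per1, a clock gene with a rapid stress response, had -0.18 (95% interval -0.86 to 0.50).

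Of the 14 MAP kinase feedback inhibitors, 4 were called higher for restraint without PSD and 3 after it, against 0.935% and 1.41% of all genes. Their interaction had a median of 0.10, and of 0.05 without PHR-103f, with 9 values positive in each case. Errfi1, an inhibitor of epidermal growth factor receptors, had the larger response after PSD, 1.86 against 1.46, with an interaction of 0.40 (95% interval -0.21 to 1.01). Of the 14 cAMP-induced genes, 8 were called higher in each setting, against the same shares of all genes, and their interaction had a median of -0.05, and of -0.09 without PHR-103f. None of these 28 genes reached an unadjusted p under 0.05 for the interaction, where 3.92% of all genes did.

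The windows upstream of 3 of these genes are shown as examples, chosen after the values were seen from the early genes with opposite signs of interaction in females and males, because cAMP acts through a short element in such windows. They are the 250 bases before the RefSeq start (GRCm38.p6), written 5′ to 3′ on the gene's strand, with the core of the cAMP response element in capitals, TGACG on either strand.
Nr4a1, chr15:101266596-101266845, plus strand: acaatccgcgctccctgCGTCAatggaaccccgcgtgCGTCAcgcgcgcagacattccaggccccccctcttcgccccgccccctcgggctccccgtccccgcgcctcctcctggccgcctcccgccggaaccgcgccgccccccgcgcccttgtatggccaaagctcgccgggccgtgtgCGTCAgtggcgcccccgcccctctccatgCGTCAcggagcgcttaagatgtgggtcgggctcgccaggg
Nr4a2, chr2:57124004-57124253, minus strand: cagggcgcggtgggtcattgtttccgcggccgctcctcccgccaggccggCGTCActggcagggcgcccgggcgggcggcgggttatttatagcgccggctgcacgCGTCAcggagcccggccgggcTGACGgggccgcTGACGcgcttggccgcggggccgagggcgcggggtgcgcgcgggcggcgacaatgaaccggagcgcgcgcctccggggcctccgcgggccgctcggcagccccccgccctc
Dusp1, chr17:26508473-26508722, minus strand: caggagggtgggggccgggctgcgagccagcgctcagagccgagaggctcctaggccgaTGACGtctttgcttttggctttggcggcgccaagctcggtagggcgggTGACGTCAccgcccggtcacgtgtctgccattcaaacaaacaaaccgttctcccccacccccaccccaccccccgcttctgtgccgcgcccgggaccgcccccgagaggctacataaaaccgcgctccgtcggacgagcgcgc
Nr4a1 and Nr4a2 each hold 4 cores in this window, and Dusp1 holds 3, a pair of which overlap as the full element TGACGTCA. Of the 61 list genes, 46 had a window in the RefSeq table. The core was in 21 of these (45.7%) and in 4827 of all 27025 windows (17.9%). The full element was in 2 of them, Btg2 and Dusp1 (4.35%), and in 1.62% of all windows. A match of letters is not shown to be a site in use.

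**Figure D2:**
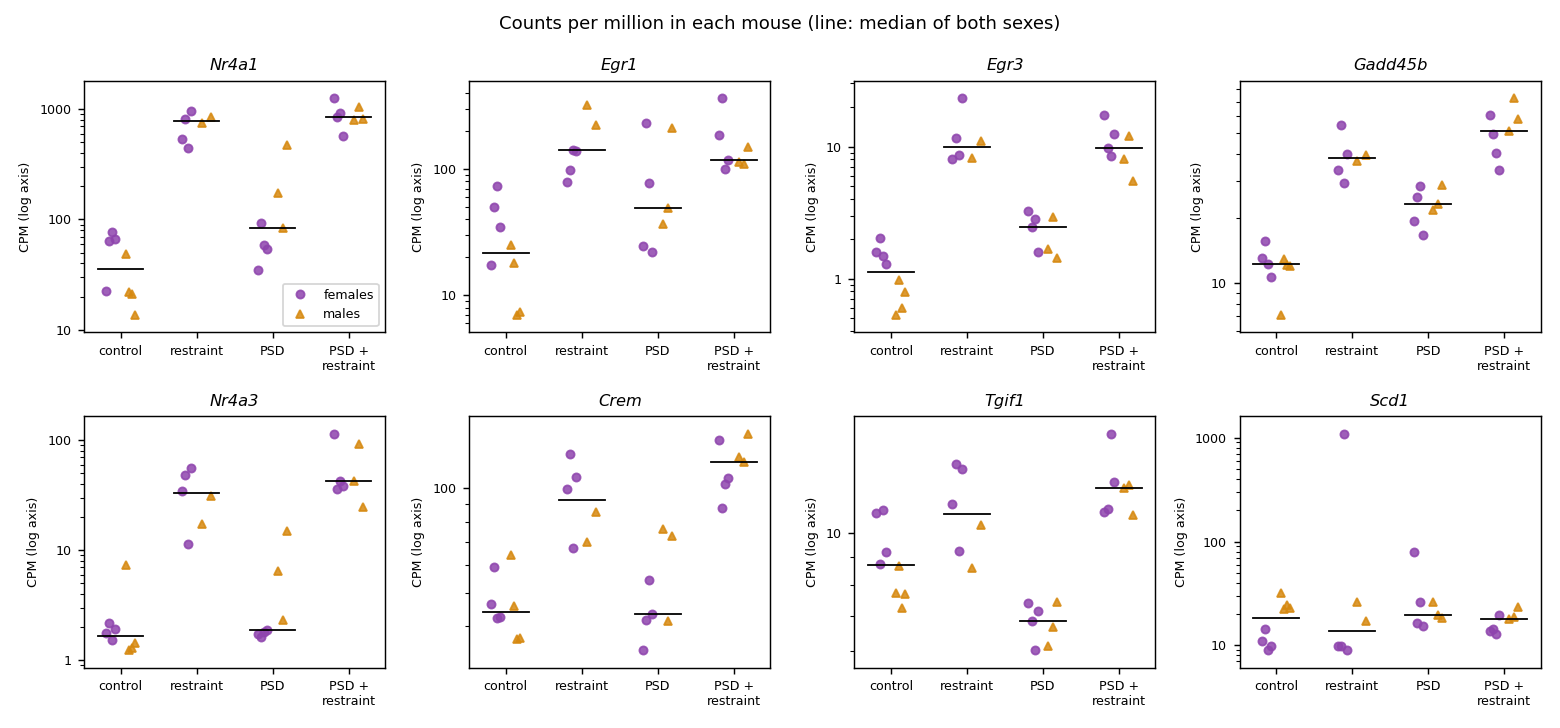
CPM (log axis) of 8 genes in each of the 28 mice by treatment, with females as circles, males as triangles and a line at the median of both sexes. Nr4a1, Egr3 and Gadd45b overlap between both restrained groups and have higher medians in PSD than in control mice, and the Scd1 panel shows the restrained female PHR-103f at 1092 CPM.

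The sign of an interaction depends on the scale when the starting levels differ. On the CPM scale, averaged over the sexes with equal weight, restraint added 702 CPM of Nr4a1 without PSD and 743.5 CPM after it, a difference of 41.8 ± 119.9 CPM (SE), where the log2 value was negative. Nr4a2 (68.7 ± 69.5 CPM, SE), Nr4a3 (22.1 ± 15.1 CPM, SE), Fosb (9.39 ± 14.1 CPM, SE) and Gadd45b (3.07 ± 5.48 CPM, SE) were also positive on the CPM scale and negative on the log2 scale. Egr3 stayed negative on both, at -2.11 ± 2.36 CPM (SE), and so did Egr1, at -101.2 ± 55.3 CPM (SE). Tgif1 stayed positive on both. Each of these CPM differences except that of Tgif1 was within 2 standard errors of 0 on the CPM scale. Fam212b, near 0 on the log2 scale, had 11.1 ± 5.49 CPM (SE), just beyond 2 standard errors.

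**Figure D3:**
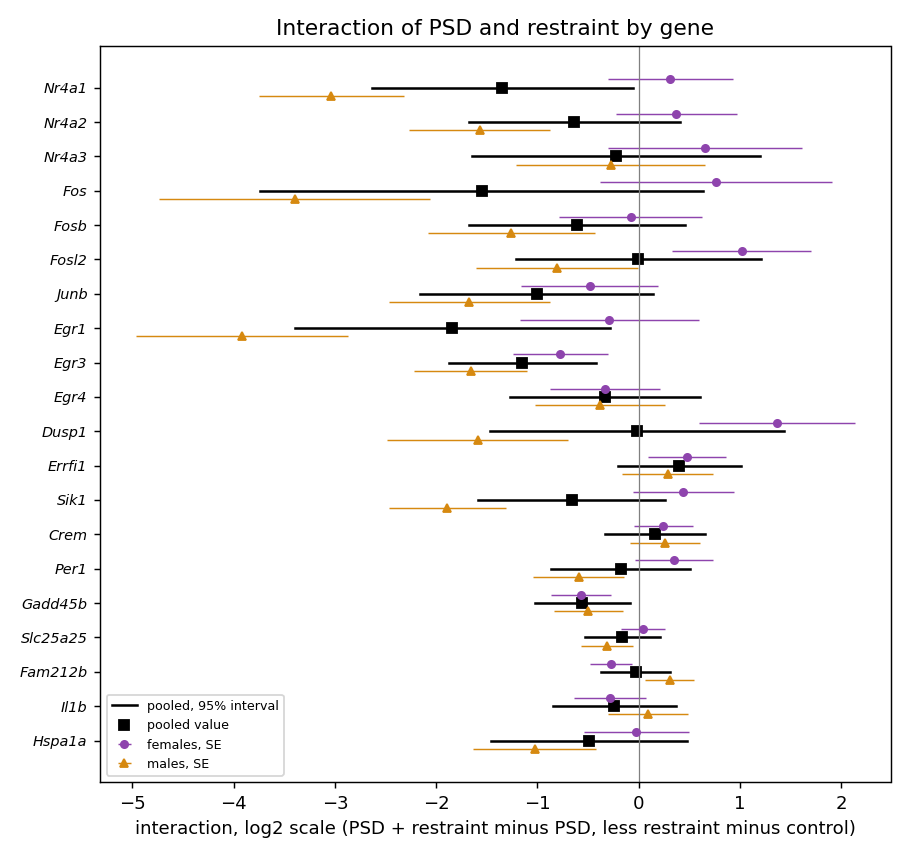
Interaction on the log2 scale for 20 genes with a restraint response: pooled value with its 95% interval (black), females (circles, SE) and males (triangles, SE). The male values of Nr4a1, Nr4a2, Fos, Junb, Egr1, Egr3, Dusp1 and Sik1 lie below -1.5, while their female values lie between -0.77 and 1.36.

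Pooling the sexes joined values that pointed in different directions for some early genes. When each sex by treatment group had its own mean in the fit, the Nr4a1 interaction was 0.31 ± 0.61 (SE) in females and -3.03 ± 0.72 (SE) in males, a difference of 3.35 ± 0.95 (SE). PSD males had 84.1, 172 and 471 CPM of Nr4a1 against 13.6, 21.1, 21.8 and 49.0 CPM in control males. PSD females had 34.9 to 92.3 CPM, and control females 22.3 to 76.6 CPM. The unrestrained males thus did not overlap while the unrestrained females did. Restrained mice of both sexes lay between 441 and 1255 CPM. Sik1 had 0.44 in females and -1.89 in males, Egr1 -0.29 and -3.91, Fos 0.77 and -3.40, Dusp1, a MAP kinase phosphatase, 1.36 and -1.59, and Nr4a2 0.37 and -1.57. In edgeR over all 28 mice, the unadjusted p of the difference was 0.00166 for Nr4a1, 0.00538 for Sik1, 0.0139 for Egr1, 0.0192 for Dusp1, 0.0267 for Fos and 0.0455 for Nr4a2. None passed the adjustment: the test of the difference between the sexes called 0 of 18936 genes, with 824 at an unadjusted p under 0.05, a smallest adjusted p of 0.988 and, in DESeq2, 0 calls and 765 genes at that limit.

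Over the 33 immediate early transcription factors, the female value was above the male value for 24 genes, with a median difference of 0.75. At an unadjusted p under 0.05 the female value was higher for 5 and the male value for 2, Ier3 and Maff, where over all 18936 genes it was 382 and 442. Ier3 had -0.37 in females and 1.15 in males, against the direction of Nr4a1. The smallest unadjusted p of the list in that edgeR fit was 0.000954, smaller than that of Nr4a1 and of a gene not listed with it above. Within the females alone the list had a median of 0.11 and within the males alone of -0.28. At an unadjusted p under 0.05, 3 were positive and 9 negative in males, against 324 and 378 of 18271 genes. In females it was 1 and 0, against 306 and 460 of 18059 genes. The male values rest on 2 restrained and 3 PSD mice, and of the PSD males PPN-103m was highest for Nr4a1, at 471 CPM, Sik1, at 93.8 CPM, and Egr1, at 212 CPM.

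The genes that restraint raises can be chosen in one sex and read in the other, so that the choice does not set the sign of the value. Of 87 genes called higher for restraint in females, the male interaction was positive for 46 and negative for 41. Its median was 0.01 against 0.00 over all genes. At an unadjusted p under 0.05, 3 were positive and 8 negative, where over all genes in males it was 324 and 378 of 18271. Of 53 genes called higher in males, the female interaction was positive for 38 and negative for 15, with a median of 0.12 against -0.01 over all genes. At that limit 1 was positive and 0 negative, where over all genes in females it was 306 and 460 of 18059. The responses themselves were carried over: genes chosen in females had a median restraint response of 0.72 without PSD and 0.78 after it in males, and genes chosen in males had 1.06 and 1.11 in females.

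Of single genes, Tgif1 (chromosome 17, 70844205 to 70853546), a homeobox repressor of TGF-beta signalling, had the smallest p of the interaction. Control mice had 7.24 to 11 CPM (median 8.69), restrained mice 8.60 to 13.5 CPM (median 10.9), PSD mice 6.02 to 7.41 CPM (median 6.82) and PSD + restraint mice 10.8 to 15.3 CPM (median 12.2). PSD mice were low and did not overlap with PSD + restraint mice, while restrained and control mice overlapped. The response to restraint was 0.28 (adjusted p = 0.168) without PSD and 0.84 (adjusted p = 5.3e-06) after it, and the interaction 0.55 (95% interval 0.28 to 0.83, adjusted p = 0.9999). It was 0.62 in females and 0.53 in males, and between 0.50 and 0.60 with each mouse left out. Tgif1 was picked by its p in these same mice, so these values are no separate support.

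Other positive values by p ranged from small ones in abundant genes to larger ones in scarce genes. Rpl23a, a ribosomal protein of the large subunit, had 0.31 ± 0.08 (SE), S100a11, a calcium-binding protein, 0.31 ± 0.08 (SE), and Fau, which encodes a ribosomal protein fused to a ubiquitin-like one, 0.27 ± 0.07 (SE). Rpl23a was -0.25 for PSD against control (adjusted p = 0.0314) and 0.06 for PSD among restrained mice. Tgfbr3l had 0.40 ± 0.12 (SE) and Proser1 0.29 ± 0.09 (SE). Snai1, a repressor of epithelial genes, had 1.30 to 1.90 CPM in controls and 0.746 to 1.44 CPM after restraint, a response of -0.68 (adjusted p = 0.0383), and 0.14 after PSD, giving 0.83 ± 0.25 (SE). St8sia2, a polysialyltransferase, had 0.74 ± 0.22 (SE) at a mean of 3.12 CPM, and Hsf2bp 1.19 ± 0.35 (SE) at 0.329 CPM. The cDNA AK034260 had 2.0 ± 0.49 (SE) at 0.171 CPM.

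Among the negative values by p, Gm15417 had -0.46 ± 0.12 (SE), Oraov1 -0.20 ± 0.06 (SE), Paip2b, a regulator of poly(A)-binding protein, -0.24 ± 0.07 (SE), Zfp407 -0.23 ± 0.07 (SE) and Fam76b -0.18 ± 0.06 (SE). Calr4 and the rows labelled Mir1943 and AK037264 had -1.34 ± 0.41, -1.09 ± 0.34 and -1.01 ± 0.29 (SE) at under 1 CPM. Cox8b and Scd1 complete the list by p, and both rest on a single library. Cox8b, a cytochrome oxidase subunit of muscle and brown fat, was at 82.1 CPM in the restrained female PHR-103f and at no more than 2.19 CPM in any other mouse. Its interaction was -5.44 with this mouse and -0.44 without it. Scd1 (chromosome 19, 44394455 to 44407879), a fatty acid desaturase, was at 1092 CPM there and at no more than 78.6 CPM elsewhere, and its interaction went from -3.98 to -0.51.

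Genes of the pituitary axis gave no called interaction. Pomc had 11420 to 68140 CPM in controls, 39020 to 94470 CPM after restraint, 65870 to 164400 CPM after PSD and 66220 to 126200 CPM after both, and an interaction of -0.39 ± 0.39 (SE), which was -0.26 without the control male PHN-101m. The lowest Pomc value belonged to that male, the mouse with few neurointermediate lobe transcripts. Because whole glands were measured, fewer cells of a type and less RNA per cell cannot be told apart. Crhr1, the receptor of corticotropin-releasing factor, had 0.14 ± 0.15 (SE), Nr3c1, the glucocorticoid receptor, 0.32 ± 0.16 (SE), and its target Fkbp5 0.05 ± 0.15 (SE). Over the 14 genes of corticosteroid receptors and targets the median was 0.04. Cga, the alpha subunit of the glycoprotein hormones, had 0.29 ± 0.15 (SE), Prl, prolactin, 0.12 ± 0.19 (SE) and Gh, growth hormone, 0.03 ± 0.24 (SE). In the fit by sex, Cga was 0.50 in females and 0.14 in males, and Prl 0.48 and -0.28. Over 12 genes of these other hormone axes, the median was 0.41 in females alone, with 10 positive. In males alone it was 0.00, with 7 positive. At an unadjusted p under 0.05 in edgeR, 3 were positive and 0 negative in females, against 306 and 460 of 18059 genes. In males it was 0 and 1, against 324 and 378 of 18271.

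Crhbp (chromosome 13, 95431371 to 95444924), which encodes the binding protein of corticotropin-releasing factor, had a value of 1.69 ± 0.73 (SE), but only the females had enough transcript to carry it. Control females had 56.8 to 164 CPM, restrained females 109 to 771 CPM, PSD females 4.69 to 23.6 CPM and PSD + restraint females 59.5 to 226 CPM. In males no mouse exceeded 1.24 CPM. PSD females lay below all other females, and PSD + restraint females overlapped the control females. On the CPM scale the sign turned, with a difference of -41.3 ± 79.4 CPM (SE), and DESeq2 gave 0.56 ± 1.0 (SE) on the log2 scale.

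Genes called for PSD were read with and without restraint, in groups that share no mouse. Of 107 genes called higher for PSD without restraint, 106 were also above 0 among restrained mice, and 10 were called there. Of 20 called lower, 19 were below 0 and 0 were called. Over all genes the median PSD difference among restrained mice was -0.00046, with 0.0951% called higher and 0% lower. How often the signs of both PSD differences matched over all genes was not counted. Lcn2, an iron-binding acute phase protein, was 0.96 without and 1.20 with restraint, with an interaction of 0.24 ± 0.23 (SE), and Clu, the chaperone clusterin, 0.71 and 0.62, with -0.09 ± 0.17 (SE). Among the 18 genes called higher for PSD in restrained mice, Per2, a period gene of the circadian clock, had 23.4 to 44.5 CPM after restraint and 45.8 to 56.2 CPM after both, which did not overlap. Its interaction was 0.31 ± 0.13 (SE). Nfil3, a clock-controlled repressor, had 0.48 ± 0.23 (SE). Of the 20 clock genes, 3 were positive at an unadjusted p under 0.05, against 1.8% over all genes, and the median of the 20 was -0.03. Without the restrained female PHR-103f, 7 genes in place of 18 were called for PSD among restrained mice.

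**Figure D4:**
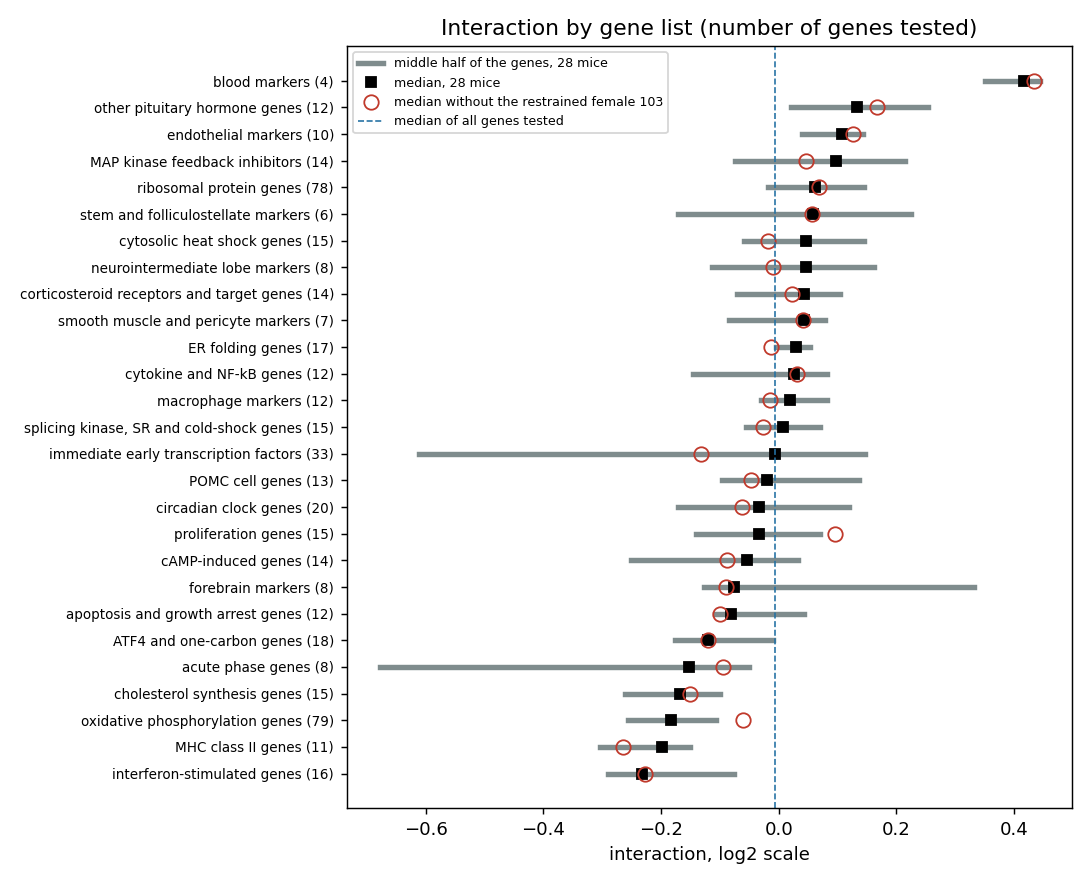
Median interaction on the log2 scale for each gene list (squares, 28 mice) with the quartiles of its genes (bars), the median without the restrained female PHR-103f (open circles) and the median of all genes tested (dashed line). The oxidative phosphorylation list moves from -0.18 to -0.06 when that mouse is left out, and the immediate early list has the widest bar of the large lists.

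Broad lists showed small common values that were not tested. Over all 18936 genes, 9052 values were positive and 9884 negative. In males alone it was 9262 and 9009 of 18271, and in females alone 8473 and 9586 of 18059. Oxidative phosphorylation genes, the subunits of the respiratory chain, had a median of -0.18 over 79 genes, 74 of them negative and 12 negative at an unadjusted p under 0.05, against 2.13% of all genes. This rested largely on the restrained female PHR-103f. On the log2(CPM + 1) scale its list level was 0.60 above the mean of the mice, and the next highest level in any mouse was 0.12. Without it the median was -0.06, with 62 negative and 3 negative at the limit, against 250 of all 18922 genes. In males alone the median was 0.01. In females alone it was -0.27, with 74 of 78 negative. Without that mouse it was -0.10 in females, with 68 of 79 negative and 8 negative at the limit, against 310 of 18259 genes. Ribosomal protein genes had a median of 0.06 over 78 genes, with 54 positive and 11 positive at an unadjusted p under 0.05, against 1.8% of all genes. Without that mouse the median was 0.07 and 9 were positive at the limit, against 235 of all 18922 genes. In males alone 71 of 77 were positive with a median of 0.13. In females alone the median was 0.04, with 46 of 77 positive. At the limit 4 were positive and 2 negative, against 306 and 460 of 18059 genes in females. Without that mouse 2 were positive at the limit in females, against 201 of 18259 genes. Near-identical copies of ribosomal protein genes make the share of reads per gene uncertain. Rpl5, Rpl17 and Rps3a1 had 0.24 ± 0.07, 0.21 ± 0.07 and 0.21 ± 0.08 (SE).

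Cholesterol synthesis genes had a median of -0.17, with 14 of 15 negative, where 9884 of all 18936 genes were negative. The value was -0.15 in females and -0.22 in males, and -0.15 without the restrained female PHR-103f. Hmgcs1, which makes the precursor of mevalonate, had -0.36 ± 0.12 (SE). Interferon-stimulated genes had a median of -0.23, with 13 of 16 negative, at -0.16 in females and -0.23 in males, and Bst2, an antiviral membrane protein, had -0.41 ± 0.17 (SE). MHC class II genes, of antigen-presenting cells, had a median of -0.20, with 10 of 11 negative, but the median was 0.0091 without the restrained female PHR-104f. In males alone it was -0.11, with 7 of 11 negative. Ciita, the transactivator of these genes, had -0.48 ± 0.28 (SE). Of the restrained females, PHR-104f was the highest for Cd74, the invariant chain, at 344 CPM against 117 to 138 CPM in the other restrained females. Genes of 1 list share regulators and cells, so that such counts are not counts of independent genes.

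Markers of other cell types gave medians between -0.08 and 0.11, except the 4 measured blood genes at 0.42, whose standard errors had a median of 0.39. Without the 3 libraries named above, the blood median was 0.28, and the neurointermediate lobe median 0.21 in place of 0.05. Summed blood markers, mostly haemoglobin, ran from 1275 to 3225 CPM in controls, 926 to 1874 CPM after restraint, 466 to 1827 CPM after PSD and 386 to 2357 CPM after both, with overlap in every pair of groups. Endothelial markers had a median of 0.11, with 9 of 10 positive, where 9052 of all 18936 genes were positive. Neurointermediate lobe markers had medians of 175, 167, 179 and 237 CPM in control, restraint, PSD and PSD + restraint mice. With the mean log2 CPM of these markers as a covariate in edgeR, 0 genes were called for the interaction. In that fit 799 had an unadjusted p under 0.05. The part of these markers in single values above was not tested further. Heat shock genes of the cytosol, of which restraint raised 4 without PSD and 5 after it among 15, against 0.935% and 1.41% of all genes, had a median of 0.05, and of -0.02 without PHR-103f. Hspa1a, an inducible heat shock protein whose reads may be shared with its near-identical neighbour, had -0.49 ± 0.47 (SE).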

How the data were processed

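Pituitary mRNA was sequenced as stranded libraries in 28 mice. MapSplice was the authors' aligner (mm10, paired ends) and HTSeq 0.9.1 their counter, over UCSC gene models. The deposited table holds unnormalized counts for every gene in each mouse. A deposited table of the same counts divided by size factors was not used. Groups came from the sample labels. Counts were scaled by TMM and fitted in edgeR 4.0.16 (R 4.3.3) with sex, PSD, restraint and PSD by restraint over all mice, after filterByExpr over the 8 sex and treatment groups. Standard errors come from the F statistic. CPM uses TMM factors over all genes. No test was made of lists or of values on the CPM scale. Intervals were widest for genes of low level. DESeq2 1.42.0 and limma 3.58.1 served as alternatives, with other filters, scalings, covariates and left-out mice. The fit was tested on simulated data. Named genes were the 10 of smallest p in each direction, with cDNA accessions passed over except 2, and 36 index genes. Other genes were named after their values were seen. Some genes that the rule names are not reported here. The members and lists were chosen with earlier results of these data known. Positions are from GENCODE M21 (53 of 57 named genes matched).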

Additional observations from a re-analysis of the deposited data

Results flagged for a closer look

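In each of the 5 groups of 4 mice, the lowest or highest mouse was tested for standing apart from the other 3 by Dixon's ratio, for the 57 named genes on log2(CPM + 1) and for the levels of 6 gene lists. Chance gives about 1 in 20 such tests, and 30 of 315 (9.52%) stood apart, all of them for genes. All values are in CPM.

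The control male PHN-101m stood apart for 6 genes. It was high for Nr4a2 at 30.93, Nr4a3 at 7.366, Fosl2 at 74.89 and Sik1 at 23.01, and low for Gadd45b at 7.09 and Pomc at 11420. The restrained female PHR-103f stood apart for 4 genes, Cox8b at 82.1, Scd1 at 1092, Fos at 23.31 and, on the low side, Tgfbr3l at 115.6. Its fat genes are described above, and their part in Tgfbr3l and Fos was not tested. The restrained female PHR-104f was high for Cd74 at 343.7 and for Cga at 3899.

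Among control mice, the female PHN-101f was low for Nr4a1 at 22.27 and high for Slc25a25 at 58.8 and Per1 at 89.95, the female PHN-102f was high for Junb at 62.2, and the male PHN-102m for Fos at 27.07. Among PSD females, PPN-101f was low for Fam76b at 24.15 and Dbp at 56.25, and PPN-103f high for Cox8b at 2.189. PPN-102f was low for Hsf2bp at 0.1638 and high for Fosb at 12.28 and Tsc22d3 at 52.24. PPN-104f was high for St8sia2 at 2.696 and Gh at 121600 and low for Fam212b at 23.71. Among PSD + restraint females, PPR-101f was high for Nr4a3 at 114.2 and Il1b at 4.994, and PPR-104f low for Nr3c1 at 69.93 and Clu at 746.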

How the results depend on the processing

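The count of genes called for the interaction was 0 under every alternative run, with a smallest adjusted p of 0.753 and 485 to 1029 genes at an unadjusted p under 0.05. The difference between the sexes gave 0 calls throughout. For PSD without restraint, DESeq2 called 286 genes in place of 127, and 78 were called when the restrained female PHR-103f, the control male PHN-101m and the PSD female PPN-101f were left out. For PSD among restrained mice, DESeq2 called 65 in place of 18, and 7 were called without the restrained female PHR-103f. Leaving out these mice was chosen after seeing the data. The causes were not tested.

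In 1584 of the values with 1 mouse left out and 821 of the other alternatives, a named gene's interaction moved by at most its main standard error. Changes of sign within that error are counted there. Beyond it, 7 and 51 moved with the same sign, and 5 and 19 changed sign. In females alone Nr4a1 was 0.31, Nr4a2 0.37, Nr4a3 0.66, Fos 0.76, Fosl2 1.02, Dusp1 1.36, Sik1 0.44, Slc25a25 0.040 and Per1 0.35. In males alone Scd1 was 0.12, Fam212b 0.30, Fkbp5 -0.14, Tsc22d3 -0.10, Pomc 0.11, Prl -0.29, Il1b 0.088, Clu 0.12 and Aldh1l2 0.33. Without the restrained male PHR-102m, Fos was 0.013, Dusp1 0.72 and Hspa1a 0.25. Nr4a3 was 0.53 without the PSD male PPN-103m, Cd74 0.16 without the restrained female PHR-104f, and Hspa1a 0.016 in limma voom. With each mouse left out in turn, Nr4a3 ran from -0.77 to 0.53, Fos from -2.22 to 0.013, Dusp1 from -0.27 to 0.72, Cd74 from -0.22 to 0.16 and Hspa1a from -0.67 to 0.25.

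With the replicate number as a replicate block, 0 genes were called for the interaction and 661 had an unadjusted p under 0.05. The numbers were shared by 39 pairs of mice of the same sex in different groups. Their deviations correlated between -0.35 and 0.33 with a median of -0.03. In the 110 such pairs with unlike numbers it was -0.34 to 0.48, with a median of 0.02. The labels do not say what the number stands for, and whether it marks a batch was not tested. Genes under 1 CPM had the widest intervals, and the part of depth in this was not tested.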
